A study of Mus musculus with 32 samples.

Results

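The genes described here are 33 components, regulators and receptors of the complement system, followed in blood and cerebellum of 2 mouse models of autism-related disease. A gene was included when a probe set of the array names it as its only gene, which held for 30 genes under their exact symbol and for C1s under its current symbol C1s1, so that 31 of 33 were measured, with 1 probe set each. C3, the central component, and Cfd, the factor D protease, have no such probe set in the annotation used and were not analysed here. RNA came from 16 mice of 8 to 10 weeks, each giving 1 blood array and 1 cerebellum array, 32 Affymetrix Mouse Gene 1.0 ST arrays in all. In the Fmr1 experiment, 5 mice without Fmr1 (Fmr1-KO), and so without its product FMRP in any cell, were compared with 5 WT mice, all on a C57BL/6 congenic background. In the Tsc2 experiment, 3 Tsc2+/- mice, which keep 1 working copy of Tsc2 (mice with none die as embryos), were compared with 3 WT mice, all on a mixed 129/SvJae and C57BL/6 J background. No treatment is named for any group. The sample labels call the mice female and the study's methods call them male.

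Complement is a set of plasma proteins and membrane receptors that tags particles for uptake and can puncture membranes. The classical pathway starts with C1q bound to a target, the lectin pathway with mannose-binding lectins and their MASP proteases, and the alternative pathway runs on its own turnover and is stabilised by properdin. All lead to C3, then to C5 and the membrane attack complex of C6 to C9, while Cd55, Cd46, Cd59, C4bp, factor I and C1 inhibitor hold the cascade back. The liver makes most plasma components, macrophages and microglia make C1q, and in the brain C1q has been linked to the removal of synapses.

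Intensities of 1035 olfactory receptor probe sets, genes hardly used in either tissue, served as background, and a gene was called above background on an array when it exceeded their 95th percentile there. That level lay between 165 and 276 on the blood arrays and between 136 and 271 on 15 of 16 cerebellum arrays. The remaining cerebellum array, of Fmr1-KO mouse 1, had a level of 577 and is given with and without below. In blood, 6 genes were above background on all 16 arrays: the properdin gene Cfp, the anaphylatoxin receptors C3ar1 and C5ar1, the surface regulators Cd55 and Cd59a, and Itgax, a chain of complement receptor 4. In cerebellum only C1qb and Clu, the gene of the chaperone and terminal pathway inhibitor clusterin, were above it on all 16 arrays, or 8 genes without the array of Fmr1-KO mouse 1. The 8 are C1qa, C1qb, C1qc, C4b, Cfp, Serping1, C1qbp and Clu. Genes above background on fewer than 8 arrays of a tissue are called near background, which held for 17 genes in both tissues. C5ar1, Cd55, Itgax and Cd46 were near background in cerebellum only, and C1qa, C1qb, C1qc, C4b and Serping1 in blood only.

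Those 17 are all of the terminal components on the list, Hc (the mouse gene of C5), C6, C7, C8a, C8b, C8g and C9. The others are the lectin pathway genes Masp1, Masp2, Mbl1 and Mbl2, the proteases C1ra, C1s1, C2 and Cfb, and the regulators Cfi and C4bp. Differences in these genes rest on low signal, and C1s1 fell to an intensity of 0.0316 on the blood array of 1 Fmr1 WT mouse.

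**Figure D1:**
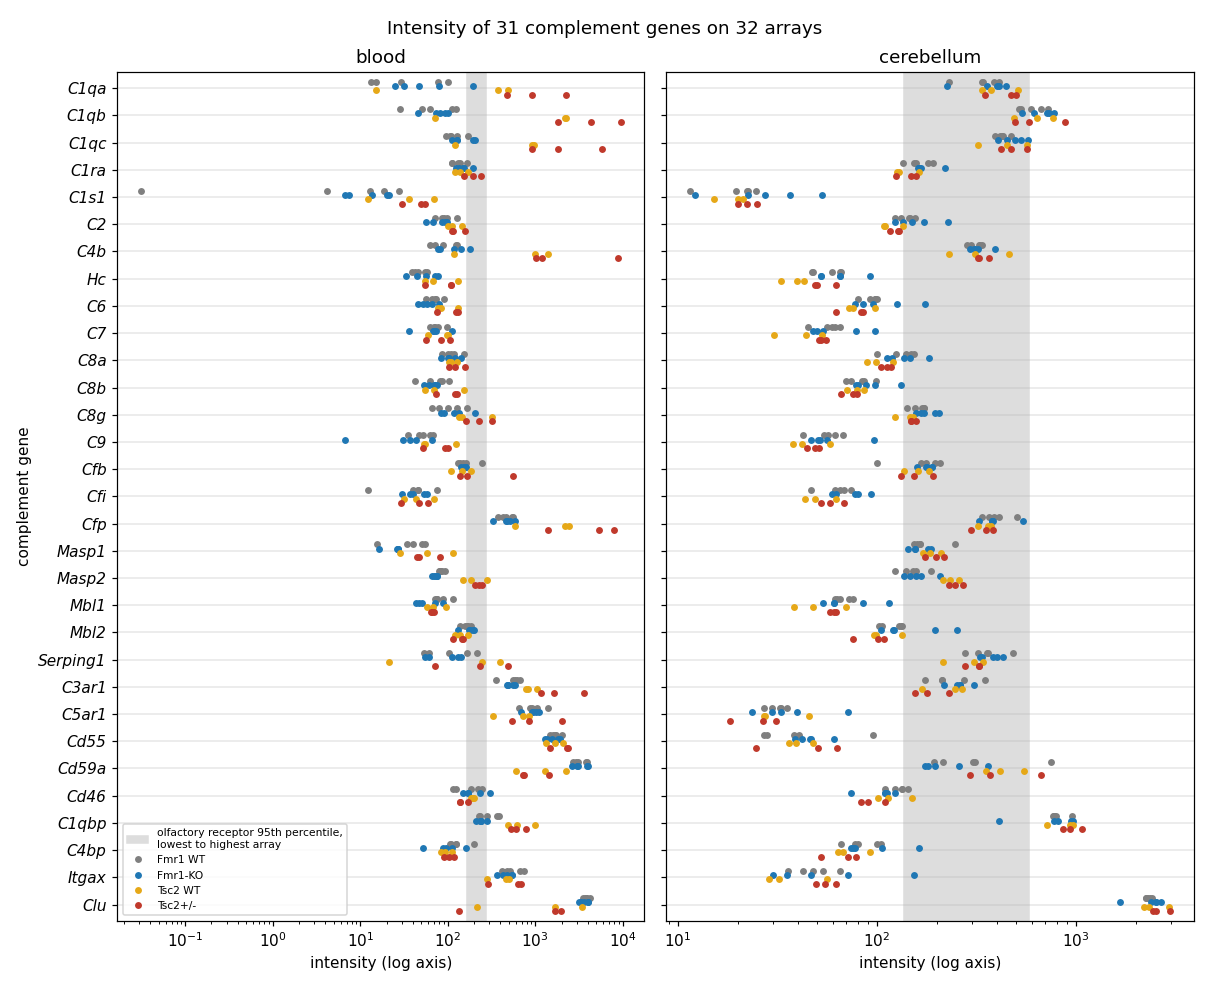
Intensity (log axis) of each of the 31 complement genes on each array, blood on the left and cerebellum on the right, with 1 point for each mouse coloured by group. The grey band runs from the lowest to the highest array's 95th percentile of olfactory receptor probe sets, up to 276 in blood and 577 in cerebellum. In blood, points of C1qa, C1qb, C1qc, C4b and Cfp of 5 of the 6 Tsc2 mice lie to the right of the Fmr1 points, with Tsc2 WT mouse 1 within or next to them, and those of Cd55, C5ar1 and Itgax lie in or left of the band in cerebellum.

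All blood arrays of the Tsc2 experiment but that of WT mouse 1 differed from those of the Fmr1 experiment in markers of liver and tissue macrophages. Alb, the gene of serum albumin and a marker of liver, lay at intensities of 61.4 to 153 on the 10 blood arrays of the Fmr1 experiment. In Tsc2 blood Alb was 90748, 78059 and 14018 in the Tsc2+/- mice and 102, 20231 and 112421 in the WT mice, so that all but WT mouse 1 carried it. The same 5 arrays carried genes of tissue macrophages, among them Adgre1, Timd4 and Cd5l, a list drawn up after these values were seen. The summed intensity of its 8 genes was 17704 to 102939 in Tsc2+/- blood and 3327, 30985 and 42019 in WT blood of that experiment, against 1908 to 3384 in the Fmr1 experiment. All 8 were above background on every Tsc2+/- blood array, against 2 of 8 in either Fmr1 group. Summed thymocyte genes reached 24224 in Tsc2 WT mouse 3, and the 4 platelet markers fell to a sum of 2306 in Tsc2+/- mouse 2 and 1633 in Tsc2 WT mouse 3, against 21111 to 39406 on all other blood arrays. In cerebellum the choroid plexus marker Ttr was 391 in Tsc2+/- mouse 1, 148 in Tsc2 WT mouse 2 and 5634 in Tsc2 WT mouse 1, against 10953 to 14685 elsewhere, and Alb was 12106 in Tsc2+/- mouse 2. The targeted gene Fmr1 had mean intensities of 221 in Fmr1-KO and 549 in WT blood and of 261 and 858 in cerebellum. Tsc2 in Tsc2+/- mice had means of 724 in blood and 822 in cerebellum, against 826 and 1137 in their WT mice (limma, both tissues: log2 difference -0.34, SE 0.14, adjusted p = 0.999).

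C1q, the recognition molecule of the classical pathway, is built from 3 chains encoded by C1qa, C1qb and C1qc, which lie next to each other in the genome. In cerebellum the 3 genes were measured at similar intensities in every group. C1qb had a mean of 605 ± 89.2 (SD, n = 5) in Fmr1 WT, 673 ± 97.5 in Fmr1-KO, 629 ± 141 (n = 3) in Tsc2 WT and 651 ± 204 in Tsc2+/- cerebellum. C1qa ranged from 224 to 513 and C1qc from 320 to 571 over all 16 cerebellum arrays. In blood of the Fmr1 experiment the chains were near background, with C1qb at 28.7, 51.0, 62.8, 112 and 124 in WT mice and at 45.3, 72.8, 80.7, 94.1 and 99.6 in Fmr1-KO mice. In blood of the Tsc2 experiment C1qb was 1806, 4389 and 9429 in Tsc2+/- mice 1, 2 and 3, and 70.7, 2211 and 2276 in WT mice 1, 2 and 3. WT mouse 1 thus matched the Fmr1 mice, and the other 5 arrays exceeded the highest cerebellum value of 881.

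C1qa and C1qc followed the same arrays. C1qa was 477, 923 and 2271 in Tsc2+/- blood and 15.1, 486 and 378 in WT blood, and C1qc was 908, 1811 and 5789 against 120, 979 and 909. C4b, the gene of the C4 component that C1 cleaves, was 1024, 1195 and 8725 in Tsc2+/- blood and 118, 1390 and 985 in WT blood, against 62.4 to 180 in the Fmr1 experiment. The C4b probe set may also pick up its near-identical copy C4a, which had intensities of 132, 238 and 1018 in Tsc2+/- blood. The arrays high in C1q and C4b are the 5 that carry Alb and the macrophage genes, and the part of those tissues in the C1q and C4b signal was not tested. Bulk RNA cannot tell more cells of a type from more RNA in each cell.

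The sequences around the annotated starts of C1qb and C1qc are shown because both were high on the Tsc2 blood arrays that carry Alb. They did not move together everywhere. In Fmr1-KO cerebellum, mouse 1 had the highest C1qb (774) and the lowest C1qc (404) of its group. C1qa has no entry in the promoter table used, which held 23 of the 31 genes. Both regions are on the minus strand of GRCm38.p6, as RefSeq places the genes, and are printed from 250 bases before to 50 after the start of the gene. Capitals mark GAGGAA or its reverse complement TTCCTC, the core that Ets family factors such as PU.1 of macrophages can bind.
C1qb, chr4:136886151-136886450: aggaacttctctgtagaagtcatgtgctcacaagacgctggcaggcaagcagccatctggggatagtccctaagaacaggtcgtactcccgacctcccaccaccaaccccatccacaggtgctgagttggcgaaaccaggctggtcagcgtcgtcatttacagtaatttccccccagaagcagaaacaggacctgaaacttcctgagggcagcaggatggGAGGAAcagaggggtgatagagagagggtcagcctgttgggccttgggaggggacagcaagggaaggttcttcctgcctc
C1qc, chr4:136892865-136893164: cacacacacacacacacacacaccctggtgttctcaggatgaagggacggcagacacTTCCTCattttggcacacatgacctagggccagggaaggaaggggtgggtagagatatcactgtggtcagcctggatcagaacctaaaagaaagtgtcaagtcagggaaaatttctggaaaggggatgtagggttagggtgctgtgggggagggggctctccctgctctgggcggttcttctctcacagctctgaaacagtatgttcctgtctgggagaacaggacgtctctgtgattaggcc
Each region holds 1 match, beginning at position -30 relative to the start in C1qb and -193 in C1qc, where it runs on the other strand. Among 32851 promoters of the same length in the table, 28.3% hold the motif on either strand, and a match is a description, not a known binding site.

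C1r and C1s, the proteases that C1q activates, and C2, which pairs with C4, gave low signal. C1ra lay at 112 to 242 in blood and at 124 to 218 in cerebellum, C1s1 did not exceed 69.8 on any array, and C2 did not exceed 226. Serping1, the gene of C1 inhibitor, was above background on 15 of 16 cerebellum arrays, at 213 to 479. In Tsc2 blood it was 231, 487 and 70.7 in Tsc2+/- mice and 21.4, 249 and 401 in WT mice, so that it was low on the array of Tsc2+/- mouse 3, which had the highest C1q values. C1qbp, a mitochondrial protein that can also bind C1q, ranged from 409 to 1069 in cerebellum, where the lowest value came from Fmr1-KO mouse 1.

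In the alternative pathway, Cfp was measured in blood at 332 to 580 in the Fmr1 mice. In Tsc2 blood it was 1389, 5412 and 7849 in Tsc2+/- mice and 581, 2212 and 2463 in WT mice. The only one of the 6 arrays near the Fmr1 range was again WT mouse 1. Cfb, the protease of that pathway, stood out on 1 array, at 560 in Tsc2+/- mouse 3 against 109 to 244 on the other blood arrays. C3ar1, the receptor of C3a on myeloid cells, was 1164, 1660 and 3610 in Tsc2+/- blood and 825, 1058 and 789 in WT blood, against 352 to 666 in the Fmr1 experiment.

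Several terminal component genes that liver makes were highest on the 3 blood arrays with the most Alb, those of Tsc2+/- mice 1 and 2 and Tsc2 WT mouse 3. C8g was 323, 231 and 324 there, above background, against 136 to 160 on the other 3 Tsc2 blood arrays. C8b was 122, 128 and 154 against 55.4 to 73.1, C6 was 129, 126 and 132 against at most 84.6, C9 was 93.4, 102 and 123 against 51.8 to 54.6, and Hc was 108, 110 and 131 against 55.3 to 67.9, all below background. C7 did not follow these arrays, at 84.8, 105 and 97.7 there against 99.7 in Tsc2 WT mouse 2, also below background. C8a was 123, 157 and 129 on these 3 arrays against 103 to 108 on the other 3 Tsc2 blood arrays, but reached 152 in Fmr1 WT blood. Mbl1, Mbl2 and Cfi did not exceed 115, 197 and 75.8 on any blood array. The values of C8a, Mbl1, Mbl2 and Cfi all lay below background. The part of liver RNA in these values was not tested.

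**Figure D2:**
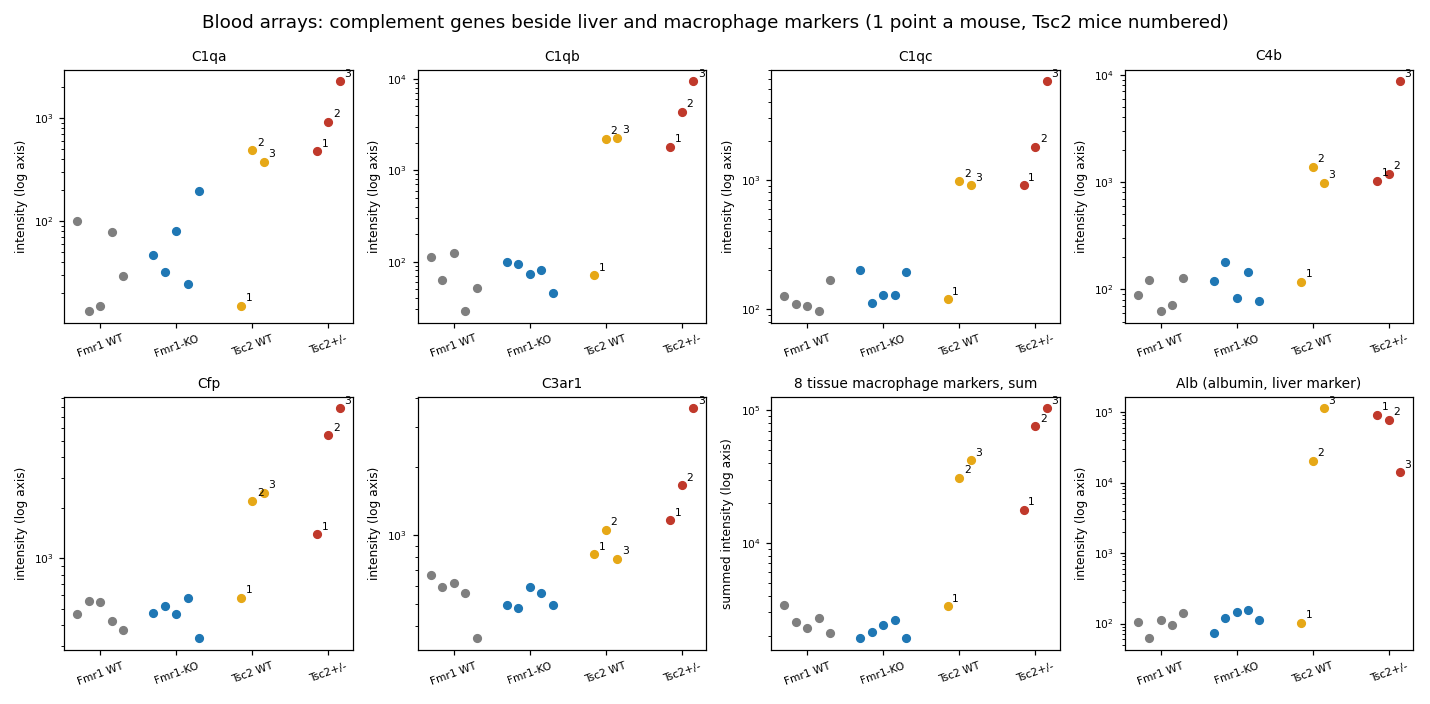
Intensity on the blood arrays (log axis) of 6 complement genes, of the sum of 8 tissue macrophage markers and of Alb, with 1 point for each mouse and the Tsc2 mice numbered. Tsc2 WT mouse 1 lies with the Fmr1 mice for C1qa, C1qb, C1qc, C4b and Alb, while the other 5 Tsc2 arrays lie above them, with Tsc2+/- mouse 3 highest for all 6 complement genes but lowest of the 5 for Alb.

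Clu and Cd59a, which encode inhibitors of the membrane attack complex, were lower on Tsc2 than on Fmr1 blood arrays, with 1 exception for Clu. Clu was 3175 to 4262 on the 10 Fmr1 blood arrays. In Tsc2 blood Clu was 1677, 136 and 1979 in Tsc2+/- mice and 3433, 1701 and 217 in WT mice. The values of 136 and 217 belong to the arrays with the lowest platelet markers, where Pf4, a platelet chemokine, was 562 and 335 against 3446 to 8053 on the other blood arrays. Clusterin is stored in platelets, and the part of platelets in the Clu values was not tested. Cd59a, which blocks C9 insertion, was 2658 to 3982 in Fmr1 blood, 728, 752 and 1421 in Tsc2+/- blood and 2250, 1303 and 599 in Tsc2 WT blood, so that the experiments did not overlap. Cd55, which takes apart the C3 convertase, did not share this pattern, at 1290 to 2048 in the Fmr1 experiment and 1319 to 2386 in the Tsc2 experiment.

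**Figure D3:**
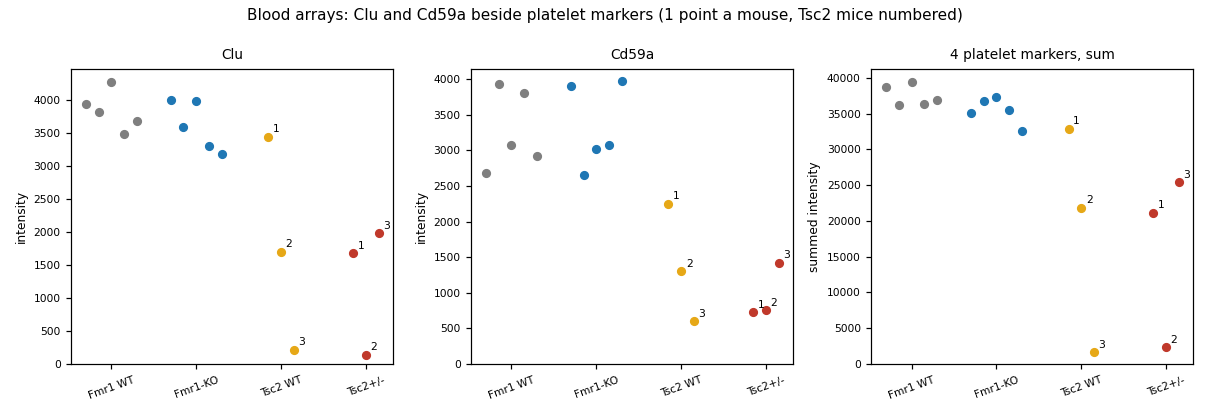
Intensity of Clu and Cd59a and summed intensity of 4 platelet markers on the blood arrays, linear axes from 0, with 1 point for each mouse and the Tsc2 mice numbered. Tsc2+/- mouse 2 and Tsc2 WT mouse 3 are lowest for Clu (136 and 217) and for platelet markers (2306 and 1633), and all 6 Tsc2 values of Cd59a lie below the lowest Fmr1 value of 2658.

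Blood and cerebellum were compared in the WT mice of both experiments, with experiment as a further term in limma. Of the 31 genes, 19 passed an adjusted p under 0.05, 8 higher and 11 lower in cerebellum, while 63.1% of all 35556 probe sets passed, 40.9% higher and 22.2% lower. The share among complement genes (61.3%) is thus close to the background. The median log2 difference, cerebellum minus blood, was 0.08 over the 31 genes and 0.29 over all probe sets.

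Several receptor and surface regulator genes were lower in cerebellum than in blood. Cd55 had a mean of 1694 in blood and 44.0 in cerebellum (log2 difference -5.36, SE 0.22, limma adjusted p = 8.63e-12). C5ar1, the C5a receptor of neutrophils, had means of 849 and 32.1 (-4.65, SE 0.22, adjusted p = 5.06e-11). Itgax had means of 508 and 45.2 (-3.49, SE 0.19, adjusted p = 2.37e-10). Their blood and cerebellum values did not overlap in WT mice, and the cerebellum values lay below background. With cerebellum set to its background level, Cd55 was at least 9.21-fold, C5ar1 at least 4.35-fold and Itgax at least 2.69-fold higher in blood. C3ar1 differed by -1.49 (SE 0.19, adjusted p = 6.88e-06) and Cd59a by -2.67 (SE 0.37, adjusted p = 1.40e-05). Both kept this direction in WT mice of either experiment alone, though Cd59a did not pass in the 3 Tsc2 WT mice (-1.48, SE 0.49, limma adjusted p = 0.059).

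With all WT mice the C1q chain genes were higher in cerebellum, but for C1qb and C1qc even the direction depended on which WT mice were used. In the 5 Fmr1 WT mice alone, whose blood values lay below background for these genes, a fit chosen after seeing the data, C1qb was higher by 3.18 (SE 0.37, limma adjusted p = 4.38e-05), C1qa by 3.29 (SE 0.57, adjusted p = 0.000627), C1qc by 1.83 (SE 0.15, adjusted p = 3.68e-06) and C4b by 1.78 (SE 0.21, adjusted p = 3.99e-05). In the 3 Tsc2 WT mice alone the differences were -0.20 for C1qb, 1.52 for C1qa, -0.13 for C1qc and -0.77 for C4b, none passing the test. Over both experiments they were 1.91, 2.62, 1.10 and 0.83, and C4b did not pass (limma adjusted p = 0.17). The call for C1qb and for C1qc was lost when any 1 of the 5 Fmr1 WT mice was left out (adjusted p from 0.063 to 0.099) and, with arrays centred on their medians, at 0.066 and 0.13. Serping1 was higher in cerebellum by 1.53 (SE 0.50, limma adjusted p = 0.014) and C1qbp by 1.06 (SE 0.21, adjusted p = 0.000397). In the 5 Fmr1 WT mice alone they differed by 1.77 and 1.47. In the 3 Tsc2 WT mice alone neither passed, at 1.13 (SE 1.09, limma adjusted p = 0.46) and 0.36 (SE 0.31, limma adjusted p = 0.40).

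Clu was lower in cerebellum of Fmr1 WT mice, with 2303 ± 65.1 against 3829 ± 297 in blood (SD, n = 5; -0.73, SE 0.09, limma adjusted p = 4.78e-05). In the Tsc2 WT mice it was 2487 ± 399 against 1784 ± 1610, a difference of 1.19 (SE 0.99, limma adjusted p = 0.39), and over both experiments it was -0.01. Masp1 and Masp2 were higher in cerebellum, by 2.06 (SE 0.29, limma adjusted p = 1.53e-05) and 0.61 (SE 0.14, adjusted p = 0.00144). However, Masp1 lay below background on all blood arrays and Masp2 on all arrays of the Fmr1 WT mice. In cerebellum Masp1 was above background in 1 of 5 Fmr1 WT and 2 of 3 Tsc2 WT mice. Masp2 differed by 0.83 (SE 0.12) in Fmr1 WT mice alone and by 0.25 (SE 0.26, limma adjusted p = 0.51) in Tsc2 WT mice alone. Cfp was lower in cerebellum (-0.92, SE 0.33, adjusted p = 0.024), but in Fmr1 WT mice alone the difference was -0.24 (SE 0.15, adjusted p = 0.21).

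**Figure D4:**
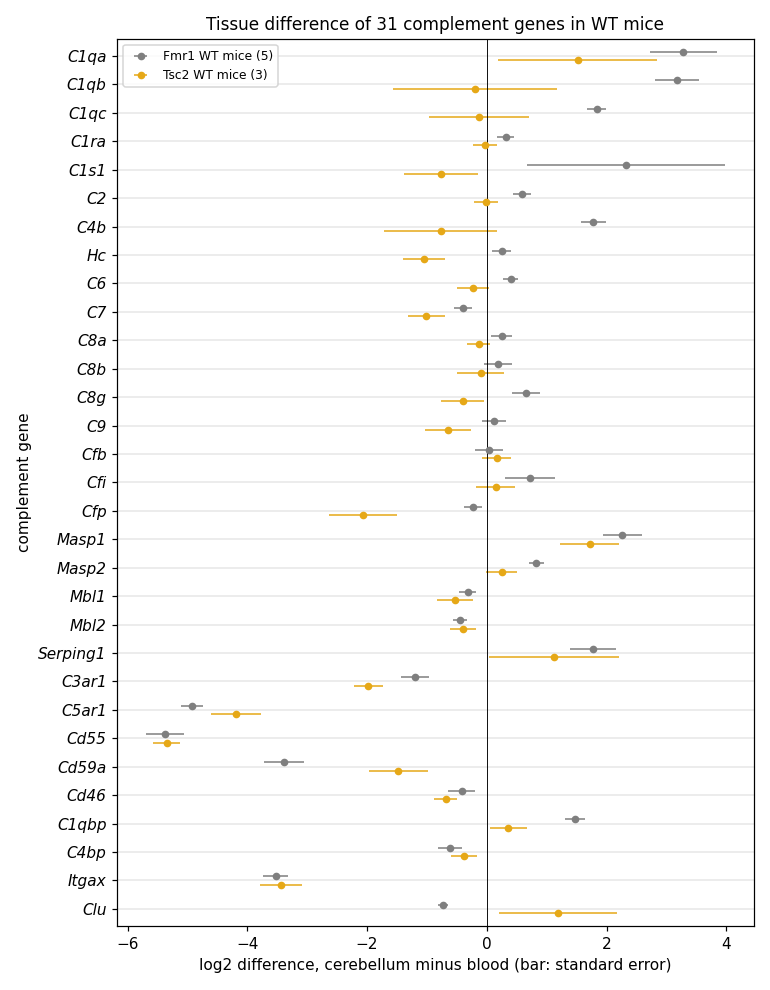
Log2 difference between cerebellum and blood for each of the 31 genes, fitted apart in the 5 Fmr1 WT mice (grey) and the 3 Tsc2 WT mice (yellow), with bars of 1 standard error. Cd55, C5ar1, Itgax and C3ar1 lie left of 0 in both, while C1qb, C1qc, C4b and Clu lie on different sides of 0 in the 2 experiments.

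A further 30 complement-related genes, a list of cofactors, paralogs and receptors outside the 33, were examined in the same fit. Of these, 10 were higher and 11 lower in cerebellum, beside the 40.9% and 22.2% of all probe sets given above. Membrane proteins of neurons with complement control repeats were higher there, Csmd3 by 5.19 (SE 0.15, limma adjusted p = 2.26e-13), Csmd2 by 2.91 and Csmd1 by 2.42, as were Sez6 by 8.64 (SE 1.45, adjusted p = 9.07e-05) and the C1q-like synaptic organiser genes C1ql1 by 2.18 and C1ql3 by 3.82. All of these lay below background in blood, where the size of a log2 difference is uncertain. With blood set to its background level, Csmd3 was at least 5.49-fold, Sez6 at least 4.99-fold and C1ql3 at least 2.34-fold higher in cerebellum. Csmd2 was at least 1.76-fold, C1ql1 at least 1.53-fold and Susd4, of the same list, at least 9.85-fold higher. Csmd1 has no such bound here, as it was 205 to 233 in Fmr1 WT cerebellum, against a background of 168 to 223. Itgb2 and Itgam, the chains of complement receptor 3, were lower in cerebellum (-5.62 and -3.44), as were Cr2, the C3d receptor of B cells (-3.85), and Cd59b, the paralog of Cd59a (-3.15). Itgb2, Itgam and Cr2 lay below background in cerebellum, so that they were at least 16.3-fold, 6.08-fold and 3.3-fold higher in blood.

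The WT mice of both experiments were compared to find genes that differ with the background strain, but strain and experiment cannot be told apart. Over both tissues 1 gene of the 31 passed, while 0.0478% of all probe sets did. This was Masp2, the protease that cleaves C4 and C2 in the lectin pathway, higher in Tsc2 WT mice by 0.93 (SE 0.15, limma adjusted p = 0.031). In blood Masp2 was 80.0, 81.3, 82.7, 86.9 and 92.6 in Fmr1 WT mice and 150, 183 and 281 in Tsc2 WT mice. In cerebellum it was 123 to 187 in Fmr1 WT mice and 214, 233 and 259 in Tsc2 WT mice. The groups did not overlap in either tissue (two-sided exact permutation p = 0.018 in each, the smallest possible for 5 against 3). In the mice that carry the mutations, blood Masp2 was 65.8 to 75.4 in Fmr1-KO, below the Fmr1 WT values, and 203 to 246 in Tsc2+/- mice, within the range of Tsc2 WT mice. Masp2 was above background on 11 of 12 arrays of the Tsc2 experiment and on 0 of 20 of the Fmr1 experiment. The Tsc2 WT blood array without the liver and macrophage signal was the lowest of the 3, at 150. With it as the only Tsc2 WT blood array, the blood difference was 0.82, and a lone array gives no spread for its group. The call did not survive leaving out any 1 of the 8 WT mice (limma adjusted p from 0.052 to 0.34).

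In blood alone no complement gene passed (smallest limma adjusted p = 0.068), against 0.132% of all probe sets, while 4 had an unadjusted p under 0.01, as did 12% of all probe sets, and 9 one under 0.05, as did 29%. Besides Masp2 (1.22, SE 0.21) these were C1qbp (1.21, SE 0.29, limma adjusted p = 0.069), Cd59a (-1.43, SE 0.40, adjusted p = 0.078) and Cfp (1.65, SE 0.47, adjusted p = 0.080), all as Tsc2 WT minus Fmr1 WT. C1qbp was 228 to 386 in Fmr1 WT and 487, 622 and 1007 in Tsc2 WT blood. The groups did not overlap for 6 of the 31 genes, Cfp, Masp2, C3ar1 and C1qbp higher and Cd59a and Clu lower in Tsc2 WT mice, against 24% of all probe sets. A further fit, chosen after seeing the data, kept Tsc2 WT mouse 1 as the only array of its group. In it Cfp differed by 0.31, Cd59a by -0.53, C1qbp by 0.74, C1qb by 0.09 and Clu by -0.15. Masp2 differed by 0.82 and Serping1 by -2.28 there, and both lay below background on that array. A lone array gives no spread for its group, so only the sizes are given. The count of 0 in blood became 7 without Tsc2 WT mouse 1, which leaves Tsc2 WT mice 2 and 3, whose blood arrays carry the liver and macrophage signal. The share of all probe sets passing in that fit is not given here, so the 7 is not read as a result about complement genes.

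In cerebellum 0 complement genes passed with limma (0.00562% of all probe sets did), 3 had an unadjusted p under 0.05 (8.19% of all probe sets did), and 2 did not overlap between the groups (4.98% of all). Masp2 was higher in Tsc2 WT mice by 0.64 (SE 0.15, limma adjusted p = 0.56). Hc was lower, at 42.8, 39.6 and 33.1 in Tsc2 WT mice against 46.9 to 66.3 in Fmr1 WT mice (-0.56, SE 0.16, limma adjusted p = 0.56). C7 came next, with means of 42.5 and 57.6 (-0.46, SE 0.20). All Hc and C7 values lay below background. Whether the strain difference itself differed between tissues was tested by the interaction term, for which no gene passed, against 0.63% of all probe sets (smallest limma adjusted p = 0.086, for Hc at -1.30, SE 0.35). That count was 13 at an unadjusted p under 0.05, where 22.4% of all probe sets lay. With adjustment it became 6 without Tsc2 WT mouse 1 and 1 without Fmr1 WT mouse 1. The shares of all probe sets passing in those fits are not given here, so these counts are not read as results about complement genes.

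**Figure D5:**
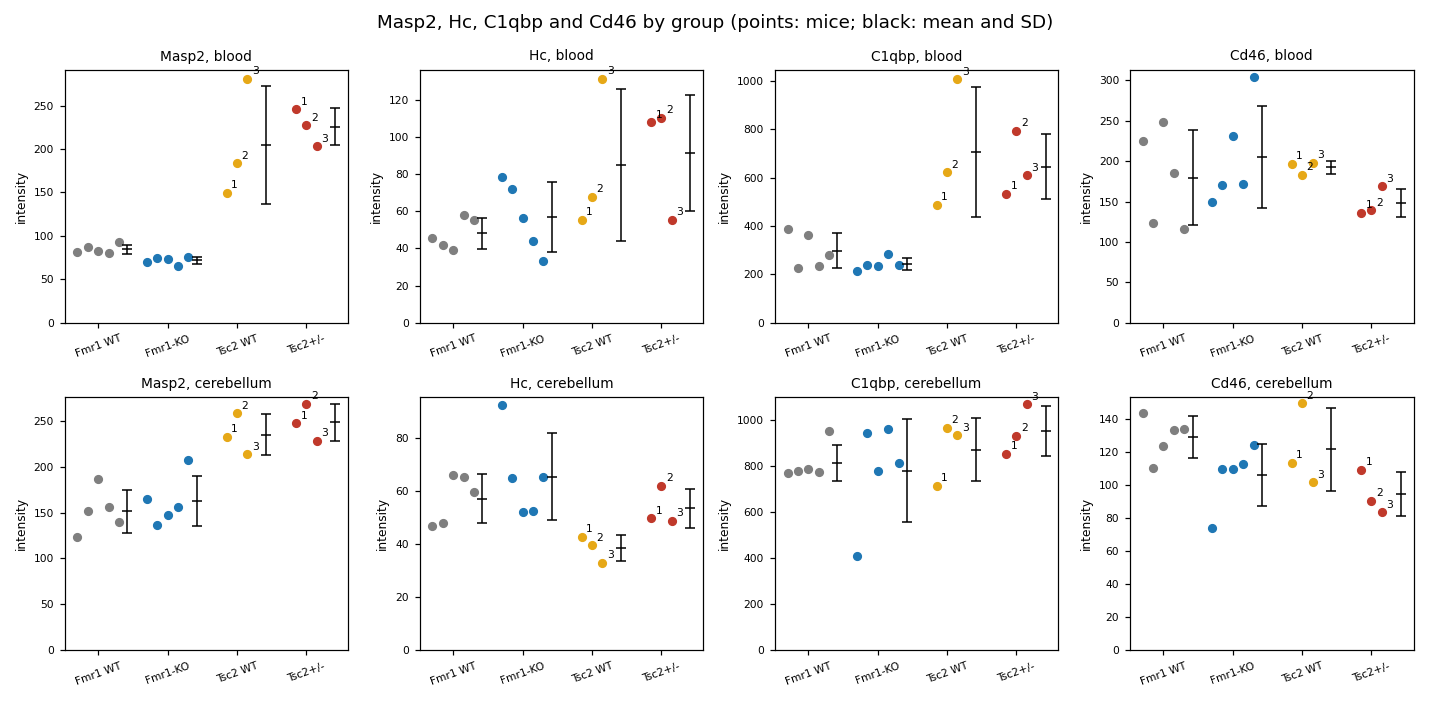
Intensity of Masp2, Hc, C1qbp and Cd46 in blood (top) and cerebellum (bottom) by group, linear axes from 0, with 1 point for each mouse, the Tsc2 mice numbered, and the mean and SD in black. Masp2 is higher in every Tsc2 mouse than in every Fmr1 mouse, in both tissues, whatever the genotype.

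Loss of Fmr1 was compared with WT within each tissue. No complement gene passed an adjusted p under 0.05 in limma in either tissue or over both, where 0.00844% of probe sets passed in blood, 0% in cerebellum and 0.00281% over both. At an unadjusted p under 0.05 there were 2 genes in blood (3.5% of all probe sets) and 0 in cerebellum (1.66%). In Fmr1-KO blood Masp2 was 65.8, 70.4, 73.8, 74.7 and 75.4, below all 5 WT values, but the log2 difference was only -0.23 (SE 0.08, limma adjusted p = 0.955; two-sided exact permutation p = 0.0079, the smallest possible). Non-overlap in blood was found for 0.562% of all probe sets and for this 1 gene of the 31. Mbl1, a mannose-binding lectin, had means of 59.9 and 85.0 (-0.54, SE 0.22, limma adjusted p = 0.955), and C1qbp of 242 and 298 (-0.27, SE 0.17), in Fmr1-KO and WT blood. The median difference over the 31 genes in blood was -0.06, against -0.07 over all probe sets.

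In Fmr1-KO cerebellum the smallest unadjusted p belonged to Cd46, a cofactor of factor I, with 106 ± 18.9 against 129 ± 12.6 (SD, n = 5; -0.30, SE 0.15, limma adjusted p = 0.999). Cd46 was near background in this tissue, above it on 1 of 16 arrays. C1qc had means of 490 and 425 (0.20, SE 0.12), and Cfi of 74.7 and 63.2. Of the 31 genes 26 had a positive difference, with a median of 0.12 against 0.02 over all probe sets. Without the array of Fmr1-KO mouse 1, whose background was 577, 20 had a positive difference, the median was 0.05 (-0.01 over all), C1qc was higher by 0.26 (SE 0.10, limma adjusted p = 1.00) and the difference of Cd46 was -0.17. That mouse also had the lowest Clu, C1qa and C1qbp and the highest C2, C6, C8a, C9, Mbl1 and Mbl2 of the 5 Fmr1-KO cerebellum arrays. In the test of whether the Fmr1 effect differed between tissues, 0 of the 31 genes had an unadjusted p under 0.05 in limma, against 3.28% of all probe sets.

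The Tsc2+/- mice were compared with their WT mice in the same way. No complement gene passed in blood, in cerebellum or over both tissues (0%, 0.0253% and 0% of all probe sets passed), and in limma 2 genes in blood and 1 in cerebellum had an unadjusted p under 0.05, against 2.14% and 4.94%. In blood the largest differences were in the genes of the arrays described above, with C1qa higher in Tsc2+/- mice by 2.83 (SE 1.46, limma adjusted p = 1.00), C1qb by 2.57 (SE 1.51), C1qc by 2.16 (SE 1.06), C4b by 2.02 (SE 1.25) and Cfp by 1.41 (SE 0.85). Without Tsc2 WT mouse 1, whose C1q values were low, these differences were 1.22, 0.91, 1.17, 0.91 and 0.74. Without Tsc2+/- mouse 2 and Tsc2 WT mouse 3, whose platelet markers were lowest, they were 3.60, 3.38, 2.74, 2.89 and 1.54. Both fits were chosen after seeing the data. C3ar1 did not overlap between the groups, with a mean of 2145 ± 1293 in Tsc2+/- and 890 ± 146 in WT blood (SD, n = 3; 1.11, SE 0.43, limma adjusted p = 1.00). Cd46 did not overlap either, at 136, 139 and 169 in Tsc2+/- mice and 197, 183 and 198 in WT mice (-0.38, SE 0.15, limma adjusted p = 1.00). C3ar1 and Cd46 were 2 of 31 genes, where 6.38% of all probe sets did not overlap. Cd46 was above background on 8 of 16 blood arrays. The smallest p of the exact permutation test for 3 against 3 is 0.1.

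In Tsc2+/- cerebellum Hc was 49.7, 62.0 and 48.8, above the 3 WT values given above (0.47, SE 0.16, limma adjusted p = 0.926), though below background, and was the 1 gene of 31 without overlap, against 10.3% of all probe sets. Itgax had means of 55.4 and 39.0 (0.57, SE 0.27), also below background, and Cd46 of 94.2 and 121 (-0.36, SE 0.19), near background in this tissue. Over both tissues the difference of Cd46 was -0.37 (SE 0.12, limma adjusted p = 0.999), and it was the 1 gene of 31 with an unadjusted p under 0.01, where 0.436% of all probe sets lay. The C1q chains did not stand apart in this tissue, with C1qb at 493, 578 and 881 in Tsc2+/- and 485, 636 and 766 in WT cerebellum. C3ar1 was also the gene with the smallest p when the Tsc2 effect was compared between tissues (-1.38 for cerebellum minus blood, SE 0.52, unadjusted p = 0.025, limma adjusted p = 1.00) and when Fmr1 and Tsc2 effects in blood were compared (-1.18, SE 0.42, unadjusted p = 0.015, limma adjusted p = 1.00).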

How the data were processed

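RNA of blood and cerebellum of 16 mice was measured on 32 arrays. Per the labels and the study's methods, the authors normalized all arrays together by quantiles at the probe level and computed each probe set's intensity by the PLIER model in Affymetrix Power Tools; the deposited intensities are linear, and the genome build is not given in the sources used here. Groups came from the labels. The platform annotation names 1 gene for 21789 of 35556 probe sets, several for 1621 and none for 12146. C1s was matched as C1s1 through a RefSeq gene table.

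Values were analysed as log2 of the intensity, without an offset; 8.35% of blood and 4.06% of cerebellum values lie under 16. Only 3 or 5 arrays a group limit the precision. limma 3.58.1 in R 4.3.3 (lmFit, eBayes) was fitted on all probe sets with Benjamini-Hochberg adjustment, with genotype alone within a tissue and with tissue as a term over both tissues. Calls are at an adjusted p under 0.05, two-sided. As in the methods, the fits over both tissues have no mouse term. Exact permutation tests were run within tissues, and the fits were tested on simulated data. The mice are separate animals. The genes, lists and tests were chosen with earlier results of these data known. By rule, values are given for genes above background in a tissue, those with an unadjusted p under 0.01, and the 3 with the smallest p in each comparison within a tissue. Values of other genes near background, such as C8g, C8b, C6 and C9, are given outside these rules. Marker lists cover microglia, choroid plexus, meninges, endothelium, astrocytes, neurons, leukocyte types, red cells, platelets and liver; lists for tissue macrophages and thymocytes were added after the values were seen. Alternatives changed offset, scaling, filter, variance model, samples and block. Same-numbered mice of different groups are different animals, and their deviations correlated at -0.09 to 0.23.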

Additional observations from a re-analysis of the deposited data

Results flagged for a closer look

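In groups of 5 mice, 3 values of complement genes lay far from the rest of their group, among 28 groups tested, where chance gives about 1 in 20. Cfp was 540 in Fmr1-KO mouse 1 cerebellum, against 324 to 383 in the other 4. Clu was 1657 in the same array, against 2374 to 2665. C1qbp was 952 in Fmr1 WT mouse 5 cerebellum, against 769 to 788. The array of Fmr1-KO mouse 1 is the one with an olfactory receptor level of 577, above its Cfp value; its part in these values was not tested.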

How the results depend on the processing

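Of 255 alternative values of 17 counts of genes, 233 stayed within 1.5 times the reported count, and no genotype count left 0 under any alternative. The strain count over both tissues, reported as 1, was 0 in the methods' linear model on linear intensities, 0 with a replicate block, 0 to 0 without each mouse in turn, 0 without the blood arrays of Tsc2 WT mice 2 and 3, and 4 with all 32 arrays in 1 fit. The strain count in blood, 0, was 3 with 16 added before the log2, 5 without dim probe sets, 5 with a trended, robust variance model, 9 with all 32 arrays, and 0 to 7 without single mice. The strain difference between tissues gave 0 to 6. For these strain counts the share of all probe sets passing in each alternative fit is not given here. A higher count is therefore not read as a result about complement genes. The tissue count of 19 was 8 in Tsc2 WT mice alone, where 37.8% of all probe sets passed, against 63.1% in the main fit. With the 75th percentile of olfactory receptors as background, 10 genes in blood and 8 in cerebellum lay above it. The replicate block changed no other count beyond 1.5 times.

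The tissue difference of Clu (-0.01) turned to 0.027 with quantile normalization within tissue, 0.23 with all 32 arrays, 1.19 in Tsc2 WT mice alone, and 0.10, 0.09, 0.12, 0.08 and 0.08 without Fmr1 WT mice 1 to 5 and 0.07 without Tsc2 WT mouse 1, and without Tsc2 WT mouse 3 it was -0.55. In Tsc2 WT mice alone it also turned for C1qb (-0.20), C1qc (-0.13) and C4b (-0.77), and on linear intensities for C1qb (-2.94) and C4b (-49.9). Apart from the smaller samples, the cause was not tested. The mean of several probe sets per gene was not run, since each gene has 1. The groups of 3 leave differences in single genes poorly determined, and 17 genes lie near background in both tissues.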

Other observations

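Some genes of the wider complement list also differed between the blood arrays of the 2 experiments. Vsig4, the complement receptor of tissue macrophages, was 6.46 to 42.4 in blood of the Fmr1 experiment, 34.9, 427 and 697 in Tsc2 WT blood and 624, 1362 and 4344 in Tsc2+/- blood. Itgam was 605 to 1462 in blood of the Fmr1 experiment, 1123 to 1780 in Tsc2 WT blood and 1754 to 7147 in Tsc2+/- blood. Cd59b, like Cd59a, was lower in Tsc2 blood, WT mouse 1 included, at 1857 to 2680 in blood of the Fmr1 experiment, 187 to 1491 in Tsc2 WT blood and 184 to 825 in Tsc2+/- blood. Cr1l, the rodent inhibitor Crry, was 193 to 380 in Fmr1 blood and 452 to 502 in Tsc2 blood of either genotype, without overlap; between WT mice it was higher by 0.75 (SE 0.21, limma adjusted p = 0.081). Of the 30 genes of that list, 0 passed an adjusted p under 0.05 in any genotype or strain comparison in limma, and at an unadjusted p under 0.05 there were 6 in blood between WT strains, where 29% of all probe sets lay. These genes were picked after their values were seen.

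The marker lists gave the following summed intensities. In cerebellum the 6 neuron markers summed to 31277 to 45477 and the 6 astrocyte and Bergmann glia markers to 44040 to 64268, all above background in every group, against at most 1126 and 1890 in blood. The 8 measured microglia markers summed to 1407 to 1860 in cerebellum and to 3012 to 12480 in blood, and several of them are also expressed by leukocytes. The 4 endothelium markers summed to 1674 to 2549 in cerebellum and 1190 to 2934 in blood, and the 7 meninges and fibroblast markers to 2412 to 4322 and 719 to 2818. The 7 choroid plexus markers reached 26473 in cerebellum and fell to 2485 on a Tsc2+/- array and 2737 on a Tsc2 WT array. In blood the 8 neutrophil markers summed to 10692 to 26847 in the Fmr1 experiment and to 3407 to 26267 in the Tsc2 experiment, and the 6 monocyte markers to 9875 to 14013 and 9875 to 22755. B cell markers summed to 8546 to 14873 in Fmr1 and 15334 to 23680 in Tsc2 blood, and T and NK cell markers to 5527 to 9627 and 13853 to 33274, neither with overlap. Red cell markers were lower in Tsc2 blood, at 23276 to 28918 against 31125 to 35643. The 3 measured liver markers summed to at most 728 in Fmr1 blood and 119418 in Tsc2 blood.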
